A study of Mus musculus with 8 samples.

Results

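The peaks described here are all ALKBH5 eCLIP peaks whose summit lay on chromosome 4 from 144000000 to 148000000 (GRCm39), a block of 4 Mb on the distal part of the chromosome that is known to hold a cluster of KRAB zinc-finger genes. Positions below are 1-based on chromosome 4 of that build unless another build is named. They numbered 739 of the 72953 peaks in the 4 peak lists. The block was selected because its peak numbers differed between the genotypes, so the contrast of genotypes inside it is given as a description and carries no test. The cells were E14TG2a, a mouse embryonic stem cell line, cultured with LIF and the inhibitors PD0325901 and CHIR99021, crosslinked with 400 mJ per cm2 of 254 nm UV light and fractionated to nuclei. In del-cIDR cells the endogenous Alkbh5 gene was altered so that the protein lacks its C-terminal intrinsically disordered region. In FL cells, which are wild type, the endogenous full-length protein was immunoprecipitated. Each genotype had an immunoprecipitate and an input in 2 replicates, 8 samples in all, of which the 4 immunoprecipitates had the peak lists used here. Whether replicates were separate cultures, and whether the del-cIDR line is 1 clone, is not stated in the labels.

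ALKBH5 removes the N6-methyladenosine mark from RNA and acts mainly in the nucleus. KRAB zinc-finger proteins bind DNA through arrays of C2H2 fingers, and their KRAB domain recruits TRIM28, which brings silencing chromatin marks to transposable elements in embryonic stem cells. Their genes often lie in tandem clusters that arose by duplication, so neighbouring copies can be very similar in sequence. In eCLIP, a peak marks a stretch of the genome where reads from RNA crosslinked to the protein pile up above a background set by the peak caller.

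The peak lists name no genes, and no annotation of GRCm39 was used, so the zinc-finger identity of the block was not checked against the peaks and no peak is assigned to a gene. In the RefSeq annotation of the older build GRCm38.p6, whose positions were not carried over, the stretch of chromosome 4 between Tnfrsf8 and Miip holds 82 genes. Of these, 56 are pseudogenes, 19 are protein coding and 7 are long noncoding. The symbols of 17 start with Zfp or Znf, and in gene order they are Zfp990, Zfp980, Znf41-ps, Zfp987, Zfp600, Zfp992, Zfp981, Zfp993, Zfp978, Zfp991, Zfp988, Zfp982, Zfp985, Zfp979, Zfp534, Zfp984 and Zfp933. Zfp979 is also known as Ssm1b, a strain-specific modifier of DNA methylation in mice. That these genes lie in the block rests on the labelled cluster and not on a conversion of positions. How much of the block they fill is not known, so a peak of the block need not lie among them.

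The similarity of the copies is shown here for their promoters only. Promoter bases lie mostly upstream of the RNA, and no transcribed sequence or sequence under a peak was compared. The promoter identity therefore does not show where a read of the block can be placed. The sources used here do not give how reads with several matches were treated. Of the 17 genes, 12 had a promoter sequence in the RefSeq table, with 15 promoters of 300 bases in all. The closest promoter of another of these genes was at least 80% identical for 8 of the 12 genes. The median identity to the closest one was 89.0%, against a median of 47.0% over all 101 pairs of promoters of different genes. The first is a median of best matches, so it is bound to be high beside the second. Even the closest promoter was only 47.67% identical for Zfp993 and 47.33% for Zfp933. A shared run of at least 30 bases was found for 9 of the 12. The closest pair was Zfp600 and Zfp979, at 94.67% over 300 bases. Below are the 250 bases upstream of the start of these genes and of Zfp980, whose closest promoter was also that of Zfp979, at 89.67%, each read 5′ to 3′ on the strand of the gene (RefSeq, GRCm38.p6, chromosome 4, Zfp600 and Zfp980 on the plus strand, Zfp979 on the minus strand). Capitals mark the longest run shared exactly with the closest promoter, 93 bases in Zfp600 and Zfp979 and 33 bases in Zfp980. The run in Zfp980 was sought in Zfp979 only, and Zfp980 shares a longer exact run, which includes these capitals, with Zfp600.
Zfp600: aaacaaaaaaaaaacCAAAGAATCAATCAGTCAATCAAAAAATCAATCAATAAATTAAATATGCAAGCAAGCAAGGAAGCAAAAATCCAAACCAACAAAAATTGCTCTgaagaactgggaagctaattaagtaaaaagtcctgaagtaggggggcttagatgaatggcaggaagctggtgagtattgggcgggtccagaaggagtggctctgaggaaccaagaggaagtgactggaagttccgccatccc
Zfp979: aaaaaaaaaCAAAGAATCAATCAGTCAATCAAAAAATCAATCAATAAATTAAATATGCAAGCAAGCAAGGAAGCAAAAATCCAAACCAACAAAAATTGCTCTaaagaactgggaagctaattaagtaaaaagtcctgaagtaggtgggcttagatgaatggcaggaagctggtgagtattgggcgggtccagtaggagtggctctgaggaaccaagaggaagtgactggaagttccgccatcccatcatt
Zfp980: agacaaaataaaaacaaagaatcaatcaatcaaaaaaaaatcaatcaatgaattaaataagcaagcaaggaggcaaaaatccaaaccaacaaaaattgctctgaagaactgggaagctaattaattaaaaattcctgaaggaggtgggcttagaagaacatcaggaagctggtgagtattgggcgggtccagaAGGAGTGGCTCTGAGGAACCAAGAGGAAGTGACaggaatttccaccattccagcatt
Over these 250 bases Zfp600 and Zfp979 differed by 15 edits, an identity of 94.0%. The part of this similarity in the peak positions given below was not tested.

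The block held many more FL than del-cIDR peaks. It held 34 and 37 peaks in the del-cIDR libraries, against 324 and 344 peaks in the FL libraries. The means were 35.5 ± 2.12 peaks in del-cIDR and 334.0 ± 14.1 peaks in FL (SD, n = 2 per genotype), 9.41 times as many in FL, and the genotypes did not overlap. With peaks of a library within 5 kb joined the ratio was 3.76, and it was 29.2 when peaks under 4-fold were left out. RNA levels are not part of these lists, so less RNA and less crosslinking per RNA cannot be told apart. The whole lists were of similar length, with 17584 and 18841 peaks for del-cIDR and 19892 and 16636 for FL. The block thus made up 0.193% and 0.196% of the del-cIDR lists and 1.63% and 2.07% of the FL lists. When the genome was laid out in 669 tiles of 4 Mb, the block ranked 157th and 154th from the top in the del-cIDR lists and first in both FL lists. The median tile held 18 and 19 del-cIDR summits and 21 and 17 FL summits, and the next most crowded tile after the block held 218 and 204 FL summits. The ratio of summed del-cIDR to FL summits, 0.106, was the third lowest of all tiles, where the median tile had 1.07 (with a pseudocount of 0.5 added to both sums). Fewer del-cIDR than FL summits in every pair of libraries were found in 29% of tiles, and more in 35.4%. Because the block was selected on this contrast, nothing is read from its place among the tiles.

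The excess of FL summits was not seen in the 1 Mb on either side of the block. In the 1 Mb before it, each of the 4 libraries held 2 summits. In the 1 Mb after it, the del-cIDR libraries held 34 and 30 summits and the FL libraries 15 and 9, so the order of the genotypes was the opposite of that inside. At the lower limit the last peak before the block lay at 143560614 to 143560913 and at 143560613 to 143560913 in the del-cIDR libraries, with fold enrichments of 6.27 and 5.23. In the FL libraries it lay at 143974515 to 143975566 and at 143974741 to 143975139, with fold enrichments of 3.83 and 2.72. The first peaks inside lay at 144119170 to 144119616 and 144617439 to 144617739 in del-cIDR and at 144274089 to 144274683 and 144814585 to 144814837 in FL, with fold enrichments of 3.12 and 7.90 in del-cIDR and 5.59 and 4.55 in FL. So in no library did a dense run of peaks start at the lower limit itself. At the upper limit, a peak ending at 147972178 was the last one inside in both del-cIDR libraries and in FL replicate 2. In FL replicate 1 the last one lay at 147910433 to 147911008. The first peaks beyond the block lay at 148007307 to 148007639 and 148101130 to 148101459 in del-cIDR and at 148015354 to 148015651 and 148088650 to 148091252 in FL.

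Most of the FL peaks of the block lay in its last 3 Mb. The first Mb held 10 and 8 del-cIDR summits and 26 and 14 FL summits. Through the second Mb there were 3 and 5 summits in del-cIDR libraries and 86 and 92 in FL libraries. The third held 8 and 9 del-cIDR and 105 and 108 FL summits, and the last held 13 and 15 del-cIDR and 107 and 130 FL summits. All 4 windows of 1 Mb had fewer del-cIDR than FL summits in every pair of libraries, and 3 did when peaks of a library within 5 kb were joined. Over the genome this was so for 24.3% of the 2271 windows of 1 Mb with at least 4 summits, and the opposite for 34.8%. Summed over replicates, FL had 2.22 times as many summits as del-cIDR in the first Mb (18 del-cIDR and 40 FL) and 11.8 times as many in the last 3 Mb (53 del-cIDR and 628 FL). The split at 145 Mb was made after the values were seen. The first Mb held 29.4% and 21.6% of the del-cIDR summits of the block and 8.03% and 4.07% of the FL summits. In the last 3 Mb the mean was 26.5 ± 3.54 summits in del-cIDR and 314.0 ± 22.6 in FL (SD, n = 2 per genotype). That is a density of 8.0 and 9.67 per Mb in the del-cIDR libraries and 99.3 and 110.0 per Mb in the FL libraries.

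At a finer scale the FL summits came in runs with empty stretches between them. Of the 40 windows of 100 kb in the block, 30 held at least 4 summits over the 4 libraries. Fewer del-cIDR than FL summits in every pair of libraries were found in 27 of these 30, against 27.4% of the 5710 such windows of the genome. More del-cIDR summits were found in 1, against 30.5% of the genome's windows. That window, from 144.6 to 144.7 Mb, held 2 and 2 del-cIDR summits and no FL summit. In 10 of the 30 windows neither del-cIDR library had a summit, and the FL libraries together had 6 to 34 there. The share of such windows over the genome was not computed. Windows entered on the sum over libraries, and the del-cIDR libraries held only 34 and 37 summits in the block. Nothing is therefore read from this count. The most crowded FL window ran from 145.1 to 145.2 Mb, with 1 and 2 del-cIDR summits and 27 and 29 FL summits. The del-cIDR summits were most numerous from 144.8 to 144.9 Mb, where del-cIDR had 4 and 6 and FL had 21 and 13, and from 146.1 to 146.2 Mb, where del-cIDR had 5 and 4 and FL had 14 and 14. The windows richest in del-cIDR summits were thus also occupied in FL. The longest stretch with no summit in any of the 4 libraries ran from 145626352 to 145987074, a length of 360.7 kb. The next ones ran from 144274372 to 144617678 and from 144916949 to 145087107, with lengths of 343.3 and 170.2 kb.

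**Figure D1:**
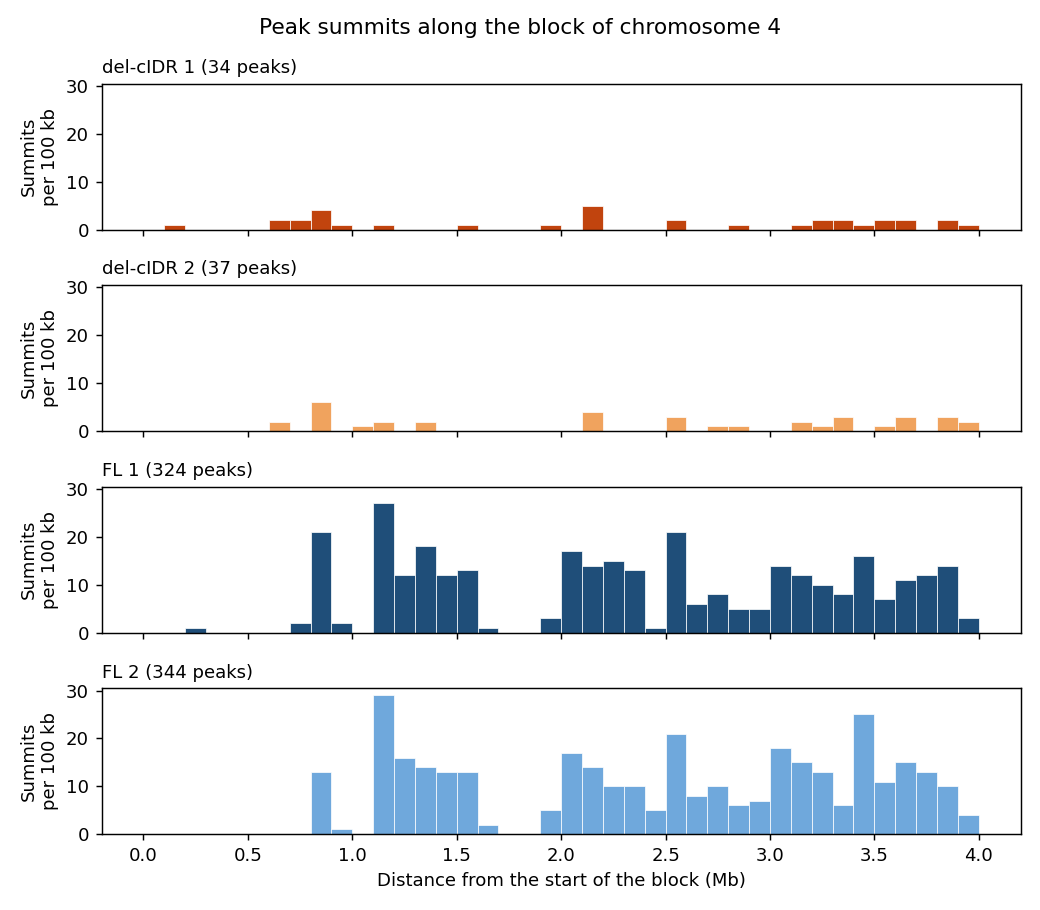
Number of peak summits per 100 kb along the block, by distance in Mb from its start, with 1 panel per library (del-cIDR 1 and 2 above, FL 1 and 2 below). The FL panels reach 27 and 29 summits in the window from 145.1 to 145.2 Mb and hold an empty stretch within 145626352 to 145987074, while no del-cIDR window holds more than 6.

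The FL summits lay close together in both FL libraries. The median distance between neighbouring summits was 56.7 and 43.5 kb in the del-cIDR libraries and 2.22 and 2.28 kb in the FL libraries. The means of these medians were 50.1 ± 9.39 kb in del-cIDR and 2.25 ± 0.0389 kb in FL (SD, n = 2 per genotype). Over the whole lists the medians were 27.5 and 22.2 kb in del-cIDR and 8.48 and 7.75 kb in FL. The median gap in the block was thus longer than over the list for del-cIDR and shorter for FL, although the block held more summits than the median tile in every library. With peaks under 4-fold left out the mean of the medians was 324.7 kb in del-cIDR and 2.50 kb in FL, and with peaks within 5 kb joined it was 17.7 kb in FL. Gaps under 5 kb made up 12.1% and 19.4% of the del-cIDR gaps and 64.7% and 65.9% of the FL gaps, against 28.8% and 31.2% over the del-cIDR lists and 44.2% and 45.9% over the FL lists. Gaps under 1 kb numbered 2 and 1 in del-cIDR and 80 and 110 in FL. These were 6.06% and 2.78% of the del-cIDR gaps and 24.8% and 32.1% of the FL gaps, and the share over the lists was not computed. When summits closer than 5 kb were put together, the 34 and 37 del-cIDR summits formed 30 and 30 groups, and the 324 and 344 FL summits formed 115 and 118. At a distance of 50 kb the groups numbered 20 and 16 in del-cIDR and 14 and 12 in FL. The FL summits of the block therefore fell into few long runs with many short steps inside them. The widest gaps between neighbouring summits were 498.3 and 816.6 kb in the del-cIDR libraries and 427.1 and 360.7 kb in the FL libraries.

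The FL libraries had wide peaks in the block and the del-cIDR libraries did not, but the median widths of the genotypes overlapped. The median width was 309 and 306 bp in the del-cIDR libraries and 395 and 304 bp in the FL libraries. Over the whole lists the medians were 325 and 331 bp in del-cIDR and 379 and 291 bp in FL. The medians averaged 307.5 ± 2.12 bp in del-cIDR and 349.5 ± 64.3 bp in FL (SD, n = 2 per genotype). FL replicate 1 lay above both del-cIDR libraries and FL replicate 2 below both, so the genotypes overlapped. The shortest width, given below, differed between the lists, so these medians do not start from a common floor. The upper tail of width differed between the genotypes in the block. The upper quartile was 330.75 and 324 bp for del-cIDR and 670.75 and 437.75 bp for FL, with no overlap. No del-cIDR peak of the block reached 1 kb, while 40 and 16 FL peaks did. Upper quartiles and shares of peaks of 1 kb or more were not computed over the whole lists. The del-cIDR libraries had no peak of 2 kb or more in the block and the FL libraries had 12 and 5 such peaks, or 3.70% and 1.45% of the FL peaks of the block. The whole lists held 16 and 26 such peaks in del-cIDR and 825 and 361 in FL, or 0.091% and 0.138% of the del-cIDR lists and 4.15% and 2.17% of the FL lists. Wide FL peaks were thus no larger a share of the block than of the FL lists. Peaks of 2 kb or more were rare over the whole del-cIDR lists too, so their absence was not particular to the block. Peaks within 1 bp of the shortest width of their list, which was 300 and 301 bp for del-cIDR and 297 and 243 bp for FL, made up 35.3% and 37.8% of the del-cIDR peaks of the block and 6.79% and 9.01% of the FL peaks. In the whole lists their shares were 32.9% and 31.0% in del-cIDR and 14.7% and 19.8% in FL.

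The peaks covered 11.555 and 12.717 kb of the block in the del-cIDR libraries and 203.77 and 147.47 kb in the FL libraries. The means were 12.1 ± 0.822 kb in del-cIDR and 175.6 ± 39.8 kb in FL (SD, n = 2 per genotype), 14.5 times as much in FL. With peaks under 4-fold left out the means were 2.09 kb in del-cIDR and 122.2 kb in FL. That is 0.289% and 0.318% of the block in del-cIDR and 5.09% and 3.69% in FL. Of all the bases covered in a list, the block held 0.163% and 0.161% in del-cIDR and 1.66% and 1.93% in FL. Covered length therefore separated the genotypes further than the number of peaks did.

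The widest del-cIDR peaks were 869, 596 and 564 bp wide. The first, in replicate 2, lay at 146129907 to 146130775, where replicate 1 had 2 peaks and FL replicate 1 had 1. The second, in replicate 1, lay at 145552424 to 145553019 and had no peak in any other library. The third, in replicate 2, lay at 147108027 to 147108590, at a region with a peak in all 4 libraries. In FL the widest peak, at 147417341 to 147423855 in replicate 1, spanned 6515 bp. Replicate 2 split this stretch into 6 peaks that covered 92.9% of it, and one of those, 3494 bp wide at 147418532 to 147422025, was the widest peak of that library in the block. The next FL peaks, all in replicate 1, spanned 5692 bp at 145269703 to 145275394, 4522 bp at 147667549 to 147672070 and 3553 bp at 145263262 to 145266814. Replicate 2 covered 91.4%, 85.6% and 88.1% of these, with 4, 4 and 2 peaks. The same long stretches were thus covered in both FL replicates, but were cut into more pieces in replicate 2. Neither del-cIDR library had a peak in any of them.

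**Figure D2:**
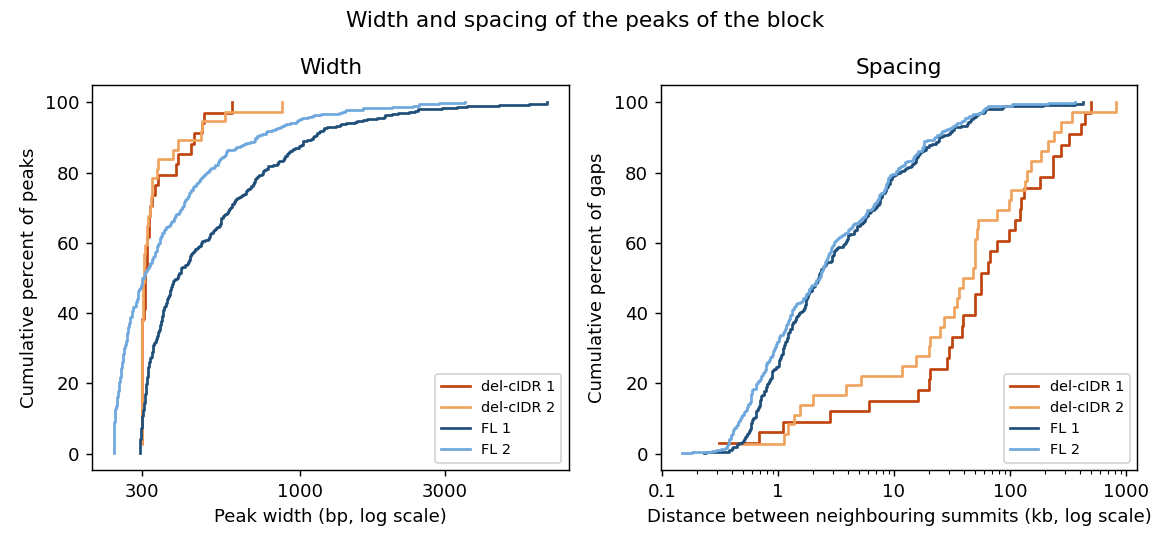
Cumulative percent of the peaks of the block by width in bp (left) and of the gaps between neighbouring summits by distance in kb (right), both on log axes, with 1 line per library. The width lines cross near 300 bp and part above it, with maxima of 596 and 869 bp in del-cIDR and 6515 and 3494 bp in FL. The spacing lines are far apart, with medians of 56.7 and 43.5 kb in del-cIDR and 2.22 and 2.28 kb in FL.

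The peak heights below are the authors' own values, a fold enrichment over the background of the peak caller and a −log10 q for each peak, and they are ranked only within a list. The fold enrichment of the block's peaks had a median of 2.90 and 2.88 in the del-cIDR libraries and of 4.98 and 3.94 in the FL libraries. The whole lists had medians of 3.17 and 3.16 in del-cIDR and 3.803 and 3.60 in FL. So the median of the block was below that of the whole list in both del-cIDR libraries and above it in both FL libraries. The highest values were 11.3 and 7.90 in del-cIDR and 29.2 and 18.6 in FL. Peaks of at least 4-fold numbered 7 and 6 in del-cIDR and 208 and 171 in FL. These were 20.6% and 16.2% of the del-cIDR peaks of the block and 64.2% and 49.7% of the FL peaks, against 31.6% and 30.4% over the del-cIDR lists and 45.8% and 41.7% over the FL lists.

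By −log10 q the peaks of the block stood above the median of their lists in all 4 libraries. The median −log10 q was 14.0 and 13.3 for del-cIDR and 33.5 and 28.9 for FL, against 10.3 and 9.91 over the del-cIDR lists and 12.1 and 11.5 over the FL lists. The best peak of the block ranked 1388 and 1269 in the del-cIDR lists and 17 and 29 in the FL lists. Among the 500 best peaks of a list, the block held 0 and 0 in del-cIDR and 38 and 24 in FL. A rank above the middle of the list was held by 67.6% of the block's peaks in each del-cIDR library and by 84.9% in each FL library. In del-cIDR the median of the block's peaks was therefore below that of the list in fold enrichment but not in −log10 q.

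That combination was most visible where −log10 q was high. Between 50 and 100, the block had 5 and 4 del-cIDR peaks with a median fold enrichment of 2.91 and 3.33, while the other peaks of those lists in the same range had 8.83 and 8.44. The 43 and 55 FL peaks of the block in this range had medians of 5.47 and 4.52, against 6.12 and 5.78 for the other peaks of the FL lists. Between 20 and 50, the 6 and 9 del-cIDR peaks had medians of 2.97 and 3.13 against 3.86 and 3.97 for the other peaks of their lists, and the 104 and 120 FL peaks had 4.92 and 3.75 against 4.58 and 4.43 for the others. Between 5 and 10, the medians inside and outside the block were close in every library, at 2.89 and 2.96 inside against 2.85 and 2.86 outside in del-cIDR and 3.23 and 3.11 inside against 3.27 and 3.18 outside in FL. In the del-cIDR libraries the shortfall in fold enrichment thus grew with −log10 q, over few peaks.

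**Figure D3:**
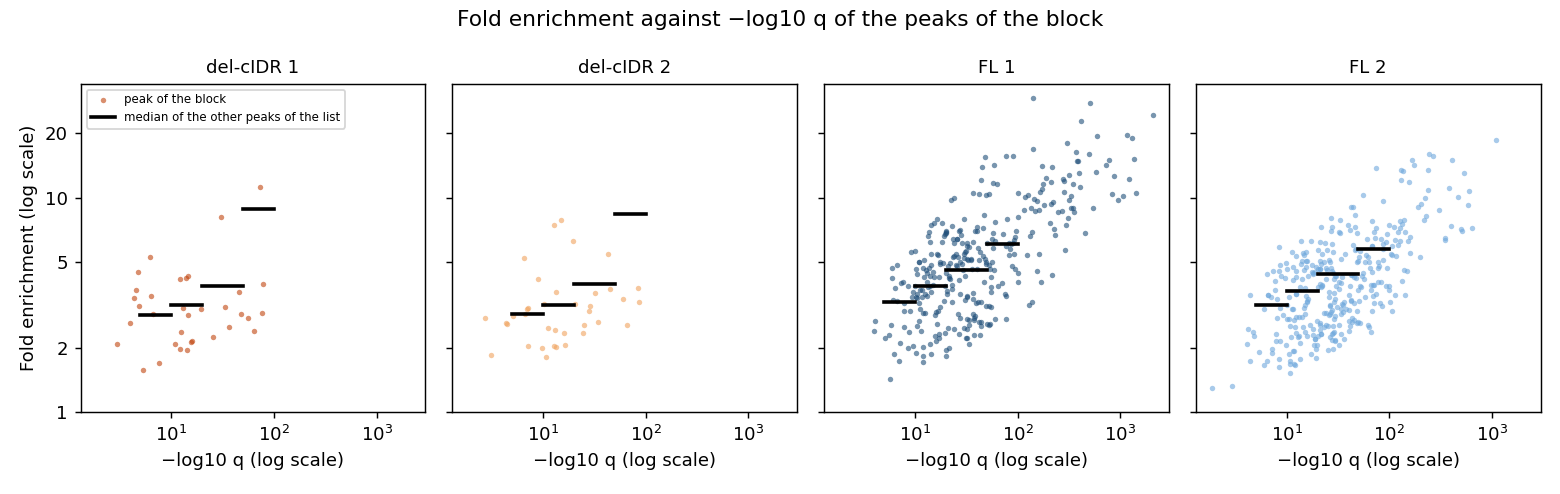
Fold enrichment against −log10 q, both on log axes, for each peak of the block in the del-cIDR libraries (left) and the FL libraries (right), with bars at the median fold enrichment of the other peaks of the same list in 4 ranges of −log10 q. Most del-cIDR points of the block lie below the bar at −log10 q of 50 to 100, at medians of 2.91 and 3.33 against 8.83 and 8.44, and the FL points extend to a −log10 q of 2086 and 1103.

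In its fold enrichment the first Mb of the block was closer to the rest than in its peak numbers. The median fold enrichment there was 3.44 and 3.05 for del-cIDR and 5.11 and 4.63 for FL, against 2.81 and 2.82 in del-cIDR and 4.94 and 3.89 in FL in the last 3 Mb. The median −log10 q of the first Mb was 4.78 and 6.76 for del-cIDR and 16.0 and 19.0 for FL, below the 17.5 and 16.3 of del-cIDR and the 36.7 and 29.5 of FL in the last 3 Mb. The higher −log10 q values thus lay in the last 3 Mb in every library.

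The share of peaks found in the other replicate was higher in the block than over the whole list for FL, and within about 2 peaks of the list's share for del-cIDR. Of the del-cIDR peaks of the block, 61.8% of replicate 1 were overlapped by replicate 2 and 54.1% of replicate 2 by replicate 1, against 64.5% and 59.7% over the lists. Of the FL peaks, 69.8% of replicate 1 were overlapped by replicate 2 and 82.8% of replicate 2 by replicate 1, against 54.0% and 76.2% over the lists. At regions held by both replicates, the best summits lay a median of 7.5 bp apart in the 20 del-cIDR regions and 37 bp apart in the 226 FL regions. They lay within 50 bp of each other in 16 of the 20 del-cIDR regions and 135 of the 226 FL regions. The rank correlation of −log10 q between replicates was 0.869 over the 20 del-cIDR regions and 0.857 over the 226 FL regions. These are descriptions over regions that share libraries and neighbours. In FL, replicate 1 had the wider peak in 213 of the 226 regions and the higher fold enrichment in 158, and replicate 2 had more peaks in 44 of them.

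Across genotypes the overlap was lopsided. A peak of at least 1 FL library lay on 13 of the 34 del-cIDR peaks of replicate 1 (38.2%) and on 16 of the 37 of replicate 2 (43.2%). A del-cIDR peak lay on 16 of the 324 FL peaks of replicate 1 and on 17 of the 344 of replicate 2, both 4.94%. Over the whole lists these shares were 24.2% and 24.3% for del-cIDR and 20.7% and 25.4% for FL. The del-cIDR peaks of the block were thus more often on an FL peak than those of the lists were, and the FL peaks less often on a del-cIDR peak. The block held unequal numbers of peaks, and the part of this in the shares was not tested. Averaged over pairs of libraries, 35.04% of del-cIDR peaks were overlapped by an FL library and 3.74% of FL peaks by a del-cIDR library, against 18.4% and 0.679% with peaks under 4-fold left out. In the first Mb, 2 of 10 and 1 of 8 del-cIDR peaks lay on an FL peak, and in the last 3 Mb 11 of 24 and 15 of 29 did. The 21 and 21 del-cIDR peaks away from FL peaks lay a median of 3.91 and 2.39 kb from the nearest one, and 14 and 15 of them lay within 5 kb. FL peaks away from del-cIDR peaks lay a median of 22.8 and 18.5 kb from the nearest del-cIDR peak. These distances also depend on how many peaks the other genotype had in the block. The part of this was not tested, and the distances were not computed over the whole lists.

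FL peaks that coincided with a del-cIDR peak were lower in fold enrichment than the other FL peaks of the block. Their median fold enrichment was 2.73 and 2.77, against 5.01 and 4.05 for the FL peaks with no del-cIDR peak. Over the whole FL lists the difference ran the same way but was smaller, at 3.45 and 3.55 for peaks on a del-cIDR peak and 3.90 and 3.61 for the others. In del-cIDR, peaks on an FL peak had medians of 2.91 and 3.09 and the others 2.86 and 2.76, against 3.84 and 3.59 on and 3.09 and 3.10 off an FL peak over the lists. The median −log10 q of the FL peaks on and off a del-cIDR peak was 32.4 against 33.8 in replicate 1 and 23.9 against 29.3 in replicate 2. For the del-cIDR peaks on and off an FL peak it was 25.7 against 12.2 in replicate 1 and 26.4 against 10.7 in replicate 2. Over the whole del-cIDR lists the median −log10 q on and off an FL peak was 20.91 against 9.043 and 19.13 against 8.755. Over the whole FL lists it was 17.54 against 11.13 and 16.44 against 10.55 on and off a del-cIDR peak. The few sites shared by the genotypes thus had the higher −log10 q among the del-cIDR peaks of the block, as over the lists. Among its FL peaks, where they numbered 16 and 17, they had the lower fold enrichment. Their median −log10 q was also the lower one, only slightly so in replicate 1, while over the FL lists it was the higher one.

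When peaks of the 4 libraries that overlapped by at least 1 bp were merged, the block held 414 of the 43029 regions of the series. Regions with peaks in both del-cIDR libraries and neither FL library numbered 10, or 2.42%, against 17.7% over all chromosomes. Those with peaks in both FL libraries and neither del-cIDR library numbered 212, or 51.2%, against 17.5%. Only 7 regions (1.69%) had peaks in all 4 libraries, against 4.70%, and 12 regions (2.90%) had other combinations, against 7.32%. The remaining 173 (41.8%, against 52.8%) had a peak in 1 library, which was del-cIDR replicate 1 in 10, del-cIDR replicate 2 in 11, FL replicate 1 in 96 and FL replicate 2 in 56. With peaks under 4-fold left out there were 3 regions of both del-cIDR libraries alone, 123 of both FL libraries alone and 0 of all 4. With peaks of a library within 5 kb joined there were 70 of both FL libraries alone. With 1 replicate left out, so that 1 library sufficed, there were 21 of del-cIDR alone without del-cIDR replicate 1 or 2, 327 of FL alone without FL replicate 1 and 13 of all libraries without del-cIDR replicate 1. Seen from the replicated regions, 10 of the 20 regions held by both del-cIDR libraries had no FL peak, against 69.3% over the series. Of the 226 regions held by both FL libraries, 93.8% had no del-cIDR peak, against 71.8% over the series.

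The classes of region also differed in width. Regions of both del-cIDR libraries alone had a median width of 304 bp and reached 338 bp at most. Regions of both FL libraries alone had a median of 481 bp with quartiles of 352.5 and 838 bp, and 11 of them were 2 kb or wider. The 7 regions of all 4 libraries had a median of 527 bp, and the 173 regions of 1 library a median of 309 bp. The regions of both del-cIDR libraries alone and those of 1 library were thus the narrowest. A merged region spans the peaks of all its libraries, so its width can rise with their number. The part of this in the order was not tested.

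**Figure D4:**
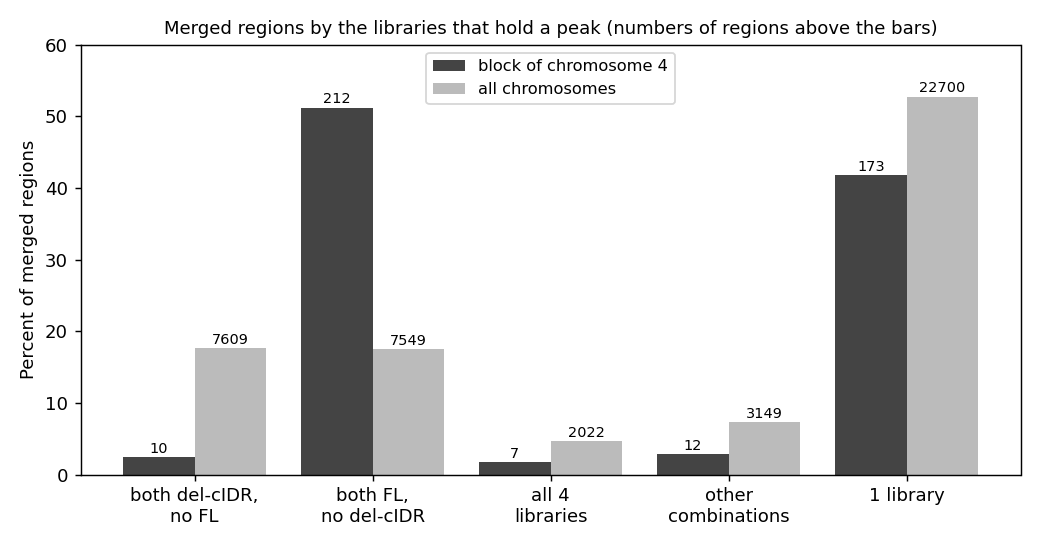
Percent of merged regions by the libraries that hold a peak there, for the block (dark bars, 414 regions) and for all chromosomes (light bars, 43029 regions), with the number of regions above each bar. Regions of both FL libraries alone take 51.2% of the block and 17.5% of all chromosomes, and regions of both del-cIDR libraries alone take 2.42% and 17.7%.

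The del-cIDR regions of the block were modest in height. The best ranked, at 147218353 to 147218657, had fold enrichments of 3.08 and 2.98 and −log10 q of 33.3 and 27.8, which placed it 2792nd and 3385th in its lists. The second, at 145138576 to 145138891, had fold enrichments of 2.14 and 2.54. The third, at 147843503 to 147843803, had 2.37 and 3.19, the fourth, at 147591976 to 147592280, 3.03 and 2.46, and the fifth, at 146834149 to 146834470, 3.07 and 3.64. All 5 were between 301 and 322 bp wide, near the shortest width of the del-cIDR lists. By the definition of the set, none had a peak in an FL library.

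The FL regions included some of the best ranked peaks of their lists. The first, at 145430388 to 145431095, had fold enrichments of 24.4 and 18.6 and −log10 q of 2086 and 1103, and ranked 17th and 29th. It was compact, with peaks of 708 and 478 bp whose summits were at 145430829 and 145430800. The second and the seventh, at 145263262 to 145266814 and at 145269703 to 145275394, were neighbours and were both among the widest peaks of the block. The second had fold enrichments of 10.6 and 7.26 and ranked 32nd and 65th, and the seventh had 19.6 and 10.1 and ranked 43rd and 108th. The third, at 147143936 to 147144856, had 15.1 and 9.25, the fourth, at 146621989 to 146624277, 10.2 and 10.7, and the fifth, at 147075047 to 147076834, 18.9 and 13.0. The sixth, at 147474681 to 147477963, had 12.2 and 7.003 and was 1 peak of 3283 bp in replicate 1 and 4 peaks in replicate 2. The eighth and the ninth, at 146802093 to 146802824 and 146802881 to 146804401, lay next to each other with fold enrichments of 9.74 and 7.13 for the eighth and 10.4 and 6.52 for the ninth. The tenth, at 146975996 to 146977102, had 14.2 and 11.1. These 10 regions were spread from 145.3 to 147.5 Mb, and by the definition of the set none had a peak in a del-cIDR library. Replicate 1 had the higher −log10 q in all 10, and the higher fold enrichment in all but the fourth.

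The regions with peaks in all 4 libraries did not share 1 order of the genotypes. At 146131473 to 146132278, the del-cIDR peaks had a fold enrichment of 3.95 and 3.38 and the FL peaks one of 5.44 and 2.77, so the FL replicates lay on both sides of the del-cIDR ones. At 146500393 to 146500871, the del-cIDR peaks had 2.91 and 3.28 and the FL peaks 2.21 and 1.96, with −log10 q of 75.8 and 86.5 for del-cIDR and 31.7 and 25.4 for FL. At 146160332 to 146160649, the del-cIDR peaks had 8.12 and 6.28 and the FL peaks 2.57 and 3.83. Both of these were higher in the del-cIDR libraries, within lists whose heights are not on a common scale. At 147893538 to 147894064, the del-cIDR peaks had 1.95 and 2.34 and the FL peaks 2.72 and 2.55, and at 147108027 to 147108590 the del-cIDR peaks had 2.24 and 2.63 and the FL peaks 1.88 and 2.29. At the second of these the values of the genotypes overlapped. A region at 144874661 to 144875847, in the first Mb, had the widest gap toward FL among the 7, with 2.89 and 3.04 in del-cIDR and 8.003 and 6.89 in FL. This last region was outside the rule for named regions and was chosen after its values were seen.

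Several shared sites lay within a few kb of each other in the third Mb of the block. At 146129904 to 146130775 both del-cIDR libraries and FL replicate 1 had peaks, with fold enrichments of 2.77 and 3.79 in del-cIDR and 2.73 in FL replicate 1. Next to it came the region of all 4 libraries at 146131473 to 146132278, and then 146132533 to 146134546, which had 2.03 in del-cIDR replicate 2 and 12.6 and 6.34 in FL. The summits of this last region were at 146133560 in del-cIDR replicate 2 and at 146133566 and 146133501 in FL. These neighbouring sites, also chosen after their values were seen, held del-cIDR peaks beside a much higher FL peak. At the upper end of the block, 147971878 to 147972178 had 11.3 and 5.47 in del-cIDR, the highest del-cIDR fold enrichment of the block, none in FL replicate 1 and 4.29 in FL replicate 2.

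**Figure D5:**
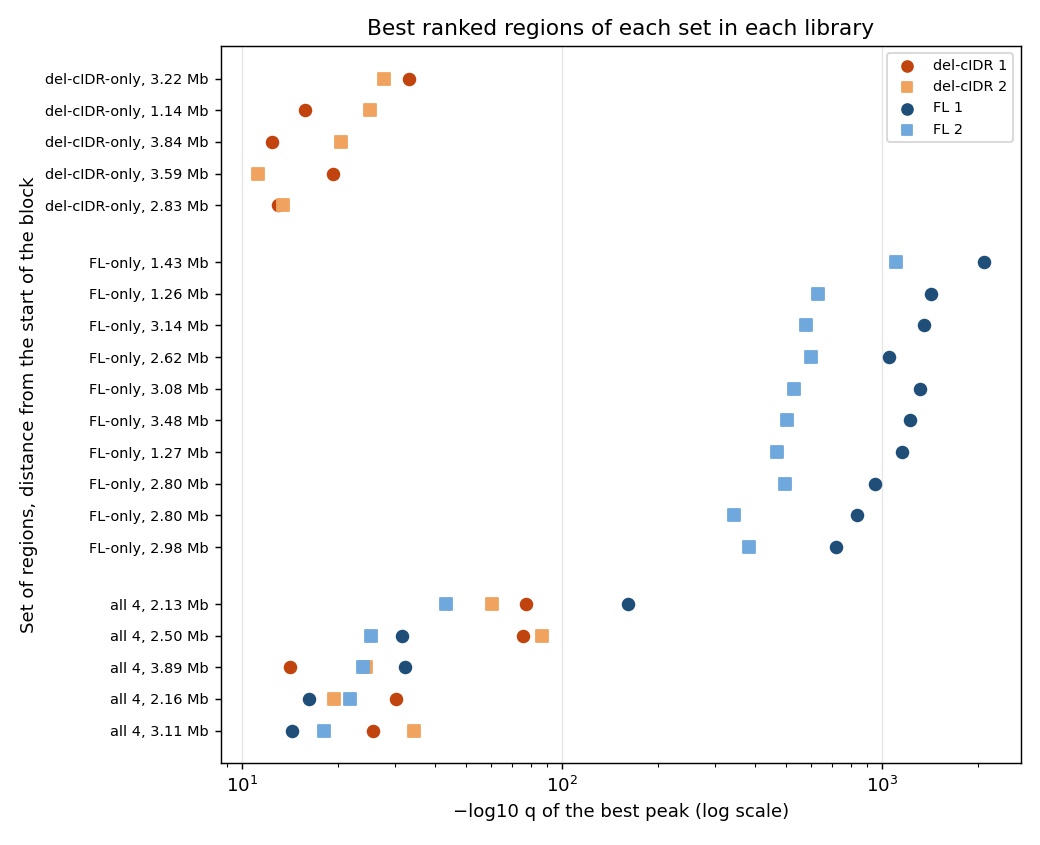
The −log10 q of the best peak of each library (log axis) at the best ranked regions of 3 sets, named by distance from the start of the block in Mb: the 5 regions of both del-cIDR libraries alone (top), the 10 of both FL libraries alone (middle) and the 5 of all 4 libraries (bottom). The FL regions reach 2086 and 1103, the del-cIDR regions stay at or below 33.3, and at the regions of all 4 libraries both del-cIDR points lie above both FL points in 2 of 5 and the genotypes overlap in the other 3.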

How the data were processed

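The submitters' processing notes name MACS2, STAR, cutadapt and UMI-tools and the build GRCm39. The sources used here give no versions or settings, nor the role of the inputs or the treatment of reads with several matches. For each peak of each replicate the authors deposited a position, a summit as a distance from the peak start, a score, a fold enrichment (a ratio), a −log10 p-value and a −log10 q-value. In each list the −log10 q started at 1.31 to 1.34. Read numbers are unknown and no peak has a strand, so the precision of each peak cannot be given. Wild-type lists were read as FL and knock-in lists as del-cIDR, the only other genotype. A peak list holds no expression values, so the cell type was not checked against markers.

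All deposited peaks were used (Python 3.11.15, pandas 2.3.3, numpy 2.4.6, figures with matplotlib 3.10.9). Summits were counted per library, in windows of 100 kb and 1 Mb and in tiles of 4 Mb, where windows with at least 4 summits entered. Peaks overlapping by 1 bp were merged, and the merging was tested on simulated data. Means and SDs are over 2 replicates. The members and lists were chosen with earlier results of these data known, so no test was run. Named regions were the 5 best by mean rank of −log10 q for both del-cIDR libraries alone and for all 4 libraries, the 10 best for both FL libraries alone, the widest peaks and the edge peaks. The alternatives were only peaks with a −log10 q of 5 or more, only peaks of 4-fold or more, lists of 16636 peaks each, joining of peaks within 5 kb, merging within 100 bp, 50% overlap or coverage, overlap with the block in place of the summit, summits per 10000 summits and each replicate left out. Genes and sequence at peaks were planned for a genome of this build and were not analysed here.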

Additional observations from a re-analysis of the deposited data

How the results depend on the processing

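Values of 18 results were recomputed under 13 settings. Of these, 123 stayed within the replicate spread or within 1.5 times the count, and 25 did not. Some of the 123 could not have moved. Leaving out a replicate of 1 genotype leaves the means of the other genotype unchanged. Leaving out 1 of 2 replicates always keeps a mean width, covered length or spacing within its SD. The tally therefore overstates how stable the results were. The ratio of FL to del-cIDR peaks stayed above 1 in every setting, from 3.76 to 29.2. With a fold enrichment of at least 4, the mean number of peaks was 6.5 in del-cIDR and 189.5 in FL (a ratio of 29.2), the covered length 2.09 kb in del-cIDR and 122.2 kb in FL, the spacing 324.7 kb in del-cIDR and 2.50 kb in FL, and the FL width 426.5 bp. The share of del-cIDR peaks overlapped by FL was then 18.4%, that of FL peaks overlapped by del-cIDR 0.679%, and 3 regions were of both del-cIDR libraries alone, 123 of both FL libraries alone and 0 of all 4. With peaks within 5 kb joined, FL had a mean of 111.0 peaks (a ratio of 3.76), a spacing of 17.7 kb and 70 regions of both FL libraries alone. With a −log10 q of at least 5, the del-cIDR covered length was 10.5 kb and the share of del-cIDR peaks overlapped by FL 40.7%. With an overlap of 50% of the peak, 2.77% of FL peaks were overlapped by del-cIDR, and with 50% of the region covered, 4 regions were of all 4 libraries. Leaving out a replicate, which asks for only 1 library of that genotype, gave 11 to 21 regions of del-cIDR alone, 213 to 327 of FL alone and 8 to 13 of all libraries. Without FL replicate 1 there were 327 FL regions, and without del-cIDR replicate 1 or 2 there were 21 del-cIDR regions. No paired analysis was possible because no result comes from a test. Read numbers are unknown, so how far depth limits the lists was not tested.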
